A study of Mus musculus with 36 samples.

Results

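A group of 35 genes of glycolysis and of the transcriptional response to low oxygen was followed in mouse pancreatic fibroblasts. Its members were the rows of the count table whose gene symbol equalled that of a named glycolysis or hypoxia gene, and all 35 were found among 39017 genes and were among the 14439 genes that passed the filter on low counts. They comprised 19 genes of glucose uptake, glycolysis and lactate handling, 3 regulators of glycolytic flux and 13 other genes of the hypoxia response. The fibroblasts were from the C57BL/6 strain and had been grown for 48 h in direct contact with 1 of 8 tumour cell lines (clones E, H, K, M, N, T and V, and the line labelled KPC1), or alone as a mono-culture. Tumour cells carried GFP and were removed by flow sorting, and the sorted fibroblasts gave poly(A) RNA libraries, with 4 libraries in each of the 9 groups. Each clone stands for 1 line, the labels do not describe KPC1, and they do not say whether libraries with the same replicate number were cultured or sorted together or came from separate animals, so that p-values measure only the spread between these libraries.

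Glycolysis splits glucose into pyruvate, and lactate dehydrogenase and the monocarboxylate transporters then make lactate and move it across the cell membrane. When oxygen is low, prolyl hydroxylases no longer mark the HIF-alpha proteins for destruction through Vhl, and HIF with its partner Arnt raises genes that carry a short motif, the hypoxia response element, among them most glycolytic enzymes, the angiogenic factor Vegfa and the mitophagy gene Bnip3. Fibroblasts of pancreatic tumours are known for their collagen matrix, whose fibres need proline hydroxylation by P4ha1 and P4ha2. In bulk RNA, fewer cells that express a gene and less RNA per cell cannot be told apart.

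The libraries held 12532122 to 21985538 counts (median 18001907), and TMM factors lay between 0.957 and 1.07. Levels are given as TMM-scaled CPM (counts scaled to a common library size) and, where genes are compared with each other, as the deposited RPKM, which also divides by gene length. The summed level of 10 fibroblast markers was 10902 to 32116 CPM over all libraries, with group means from 14849 CPM with KPC1 to 26774 CPM with clone M. The immune genes Ptprc, Itgam, Cd3e and Adgre1 had group means of at most 0.0655 CPM, whereas Cd68, a lysosomal gene of macrophages, had 3.37 CPM in the mono-culture and up to 12.99 CPM with clone T. The summed level of 11 epithelial markers was 2.74 to 4.18 CPM in the mono-culture and 21.97 to 864 CPM in the co-cultures, so that RNA of epithelial kind was present in every co-culture library after the sort. In the co-cultures Krt8, Krt18 and Krt19 made up most of that sum. The mean of Cdh1 was 0.258 CPM in the mono-culture and 30.9 CPM with KPC1, but 0.0304 CPM with clone M and 0.658 CPM with clone K. That of Cldn6 was 0 in the mono-culture and 38.9 CPM with clone T. Krt7 had group means of at most 0.968 CPM, and Epcam, Cldn4, Cldn7 and Esrp1 of at most 0.281 CPM, in all 9 groups.

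The promoter windows of the members show the motif through which HIF acts. RefSeq windows of the GRCm38.p6 build, the same assembly as the mm10 of the processing notes, covered 250 bases before to 50 bases after a start site and were matched by symbol for 34 of the 35 members. The core of the hypoxia response element was searched as ACGTG or GCGTG on either strand, where overlapping matches count separately. It was present in at least 1 window of 31 of 34 members, that is in 16 of 19 glycolysis genes, 3 of 3 regulators and 12 of 12 hypoxia genes, against 46.7% of all 27025 genes with a window. The shares describe letters only, since windows differ in number per gene and in base composition. The stretches below lie upstream of the RefSeq start site of their window and outside annotated exons. Those of P4ha2 and Ankrd37 nevertheless lie within the annotated gene, past an earlier start. All are read 5′ to 3′ on the gene's strand with the motif in capitals. They were chosen because their genes stand for the patterns described further on: Hk2, Pfkp and P4ha2 followed the tumour line, Adm was lower in co-culture, and Bnip3 and Ankrd37 followed the replicate number.
Hk2, chr6:82774482-82774700, minus strand: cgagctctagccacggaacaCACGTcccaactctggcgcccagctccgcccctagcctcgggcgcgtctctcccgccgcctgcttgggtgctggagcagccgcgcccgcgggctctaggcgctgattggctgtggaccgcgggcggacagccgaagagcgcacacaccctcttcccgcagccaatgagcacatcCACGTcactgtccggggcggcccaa
Pfkp, chr13:6648778-6648927, minus strand: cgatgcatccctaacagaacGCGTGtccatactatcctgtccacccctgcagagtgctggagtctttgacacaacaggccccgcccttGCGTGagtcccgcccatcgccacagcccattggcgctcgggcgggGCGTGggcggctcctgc
P4ha2, chr11:54100797-54100879, plus strand: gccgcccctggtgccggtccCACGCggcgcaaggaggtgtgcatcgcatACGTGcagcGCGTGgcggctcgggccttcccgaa
Adm, chr7:110627547-110627627, plus strand: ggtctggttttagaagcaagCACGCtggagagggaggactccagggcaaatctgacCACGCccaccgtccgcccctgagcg
Bnip3, chr7:138909520-138909643, minus strand: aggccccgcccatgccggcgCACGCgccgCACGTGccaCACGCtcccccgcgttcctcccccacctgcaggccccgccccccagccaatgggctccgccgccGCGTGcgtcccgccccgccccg
Ankrd37, chr8:45999978-46000100, minus strand: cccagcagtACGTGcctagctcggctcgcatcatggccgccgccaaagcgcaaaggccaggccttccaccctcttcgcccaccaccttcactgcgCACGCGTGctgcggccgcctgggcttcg
Bnip3 held 5 matches in its stretch, Pfkp, P4ha2 and Ankrd37 held 3 each, and Hk2 and Adm held 2 each, so the motif was present in genes that rose, in a gene that fell and in genes that were not called against the mono-culture.

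Each co-culture was compared with the mono-culture to ask which members changed on contact with that line, and a member was called when its edgeR adjusted p was under 0.05. With clone E, 10 of the 35 members were called (7 higher, 3 lower), against 32% of all genes tested. With clone H, 15 were called (12 higher, 3 lower), against 54.2% of all genes. With clone K, 5 were called (1 higher, 4 lower), against 19.1% of all genes. With clone M, 8 were called (3 higher, 5 lower), against 23% of all genes. With clone N, 13 were called (11 higher, 2 lower), against 39% of all genes. With clone T, 15 were called (11 higher, 4 lower), against 49.8% of all genes. With clone V, 16 were called (12 higher, 4 lower), against 58.3% of all genes. With KPC1, 17 were called (11 higher, 6 lower), against 59% of all genes. The share of members called, from 14.3% with clone K to 48.6% with KPC1, was under that of all genes in each of the 8 co-cultures. The same held for the mean of the 7 clones, where 16 members were called (11 higher, 5 lower) against 49.2% of all genes, and for the F-test of any difference among the 7 clones, where 21 members (60%) were called against 67.5% of all genes. This order depended on the libraries numbered 4, without which the share of members exceeded that of all genes in 5 of 8 co-cultures, as given further on. Over all libraries, the share of members lay close to that of all genes with clones M (22.9%) and N (37.1%). No difference between the shares was tested.

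**Figure D1:**
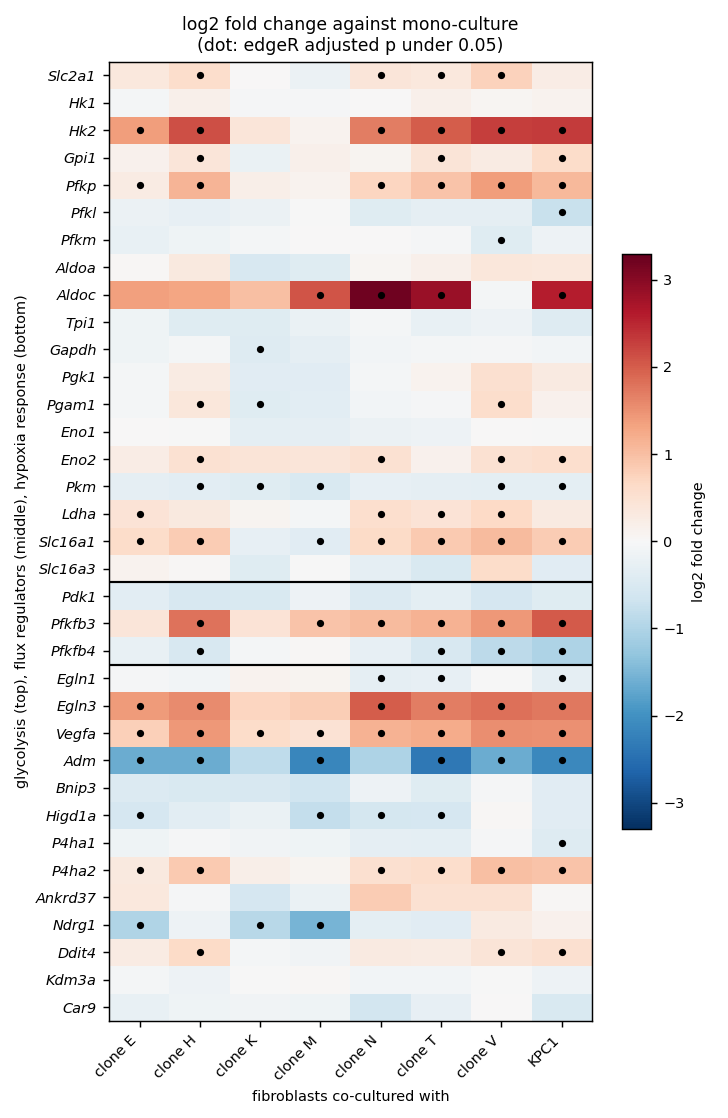
Fitted log2 fold change of the 35 members (rows) in each co-culture against the mono-culture (columns), red for higher and blue for lower, with a dot where the edgeR adjusted p was under 0.05. Hk2, Pfkp, Slc16a1, Pfkfb3, Egln3, Vegfa and P4ha2 were called higher in at least 6 co-cultures, Adm was called lower in 6, and the columns of clones K and M hold the fewest dots.

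Across the 8 co-cultures, 12 members were called only as higher, 10 only as lower, 2 (Pgam1 and Slc16a1) in both directions and 11 in none. Called higher in at least 6 co-cultures were 7 members (Hk2, Pfkp, Slc16a1, Pfkfb3, Egln3, Vegfa and P4ha2), against 11.4% of all genes. Called lower in at least 6 was 1 member (Adm), against 11.6% of all genes. The 11 members called in none were Hk1, Aldoa, Tpi1, Pgk1, Eno1, Slc16a3, Pdk1, Bnip3, Ankrd37, Kdm3a and Car9. Among them were 4 abundant enzymes of the pathway (Aldoa, Tpi1, Pgk1 and Eno1).

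Hk2, which traps glucose in the cell as glucose 6-phosphate, lies on chromosome 6 (82725025 to 82774454, minus strand). In the mono-culture its 4 libraries held 14.8, 18.3, 13.6 and 16.9 CPM. With the lines of highest level they held 112, 74.5, 78.1 and 52.5 CPM (KPC1), 72.3, 72.02, 85.1 and 78.9 CPM (clone V), 74.2, 72.5, 93.8 and 38.4 CPM (clone H) and 67.01, 69.8, 71.6 and 45.998 CPM (clone T). With the others they held 39.5, 54.4, 62.7 and 48.4 CPM (clone N), 49.03, 31.9, 47.8 and 38.03 CPM (clone E), 28.8, 19.4, 22.1 and 13.5 CPM (clone K) and 11.3, 13.2, 26.1 and 18.1 CPM (clone M). Every library of clones E, H, N, T and V and of KPC1 lay above the mono-culture, whereas those of clones K and M overlapped with it. The fitted log2 fold change was 2.32 ± 0.26 (SE, edgeR adjusted p = 1.82e-08) with KPC1 and 2.27 ± 0.26 (SE, edgeR adjusted p = 2.37e-08) with clone V, but 0.40 ± 0.26 (SE, edgeR adjusted p = 0.315) with clone K and 0.11 ± 0.26 (SE, edgeR adjusted p = 0.81) with clone M. The levels differed among the 7 clones beyond the spread of replicates (edgeR adjusted p = 3.32e-08).

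Pfkp, the platelet type of the enzyme that commits sugar to glycolysis, lies on chromosome 13 (6579768 to 6648777, minus strand) and had the smallest p among the clones of all 35 members (edgeR adjusted p = 3.4e-12). The mono-culture held 28.02, 30.5, 30.3 and 31.9 CPM. Clone V gave 84.3, 72.9, 74.9 and 80.2 CPM, clone H 77.5, 71.97, 62.6 and 51.9 CPM, KPC1 68.4, 61.5, 57.97 and 64.05 CPM and clone T 56.6, 62.6, 56.05 and 55.96 CPM. Clone N gave 38.8, 51.6, 49.2 and 56.7 CPM, clone E 37.1, 35.9, 35.5 and 36.4 CPM, clone K 35.5, 33.7, 33.2 and 34.2 CPM and clone M 28.9, 33.8, 32.6 and 35.96 CPM. All libraries of every line but clone M lay above the mono-culture, and the level with clone V (78.1 ± 5.17 CPM, SD, n = 4) was 2.59 times that of the mono-culture (30.2 ± 1.59 CPM). The log2 fold change was 1.37 ± 0.10 (SE, edgeR adjusted p = 4.87e-12) with clone V, 1.13 ± 0.10 (SE, edgeR adjusted p = 2.92e-10) with clone H and 0.26 ± 0.10 (SE, edgeR adjusted p = 0.0418) with clone E. The call with clone E was lost in 19 of the 36 fits that left out 1 library, with an edgeR adjusted p of up to 0.149 without mono-culture replicate 1. Pfkl and Pfkm, the liver and muscle types, did not share this course: Pfkl was lower only with KPC1 (log2 −0.73, SE 0.25, edgeR adjusted p = 0.0132) and Pfkm only with clone V (log2 −0.40, SE 0.12, edgeR adjusted p = 0.00488).

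Some fibroblast markers were lower with clones H, T and V and KPC1, where Hk2, Pfkp and Slc16a1 were high, and others were higher there. With clones H, T and V and KPC1 the group means of Dcn, a matrix proteoglycan, were 69.2 to 137 CPM against 317 CPM in the mono-culture, those of Pdgfra 97.1 to 149 against 312 CPM and those of Lum 0.324 to 1.11 against 6.35 CPM. Col1a1, Col1a2 and Col3a1 were also lower in these lines. Pdgfrb went the other way, at 694 to 1268 against 576 CPM in the mono-culture. So did Thy1, at 271 to 341 against 195 CPM, and Vim, at 2696 to 3566 against 2483 CPM. These rises were not particular to those lines. Pdgfrb was also higher with clones E (1664 CPM), N (1222 CPM), M (1163 CPM) and K (1042 CPM), and Thy1 with the same clones, at 214 to 354 CPM. Vim was also higher with clones E (2560 CPM) and N (3474 CPM), but not with clones K (2202 CPM) and M (2388 CPM). With clones K and M, Dcn was at 439 and 384 CPM. With clone N, where Hk2, Pfkp and Slc16a1 were also called higher, it was at 323 CPM. Fap, a gene of activated fibroblasts, was at 1.08 CPM in the mono-culture and at 19.03 to 67.1 CPM in the 8 co-cultures. The part of these shifts in the results of the members was not tested.

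Slc2a1, the glucose importer, was called higher with clones H, N, T and V, at 135 ± 24.004 CPM with clone V against 79.5 ± 8.103 CPM in the mono-culture (SD, n = 4). Its log2 fold change ran from −0.20 with clone M to 0.77 with clone V, and with clone E it was 0.34 with an edgeR adjusted p of 0.0504. Among the remaining enzymes, Gpi1 was higher with clones H and T and KPC1 (log2 0.40 to 0.60), and Eno2, the neuronal enolase, was higher with clones H, N and V and KPC1 (log2 0.49 to 0.56). Pkm, which makes pyruvate in the last step, was lower with clones H, K, M and V and KPC1 (log2 −0.50 to −0.32). Pgam1 moved both ways, higher with clones H and V (log2 0.38 and 0.58) and lower with clone K (−0.40), and differed among the clones (edgeR adjusted p = 1.65e-07). Gapdh was lower only with clone K (log2 −0.44, SE 0.15, edgeR adjusted p = 0.0444). Aldoa and Pgk1 were called in no co-culture but differed among the clones (edgeR adjusted p = 0.00264 and 0.0199), with group means of Aldoa from 357 CPM with clone K to 665 CPM with clone V. Hk1, Tpi1 and Eno1 passed neither test, with log2 fold changes between −0.42 and 0.18 over the 3 genes. Reads of Gapdh, Pgk1, Eno1, Ldha, Tpi1, Pgam1, Aldoa and Pkm may be shared with processed pseudogenes, so that their counts are uncertain where such reads were not assigned.

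Aldoc, the brain type of aldolase, was the member with the largest fold change and also one of the most variable within groups. The mono-culture held 4.07, 5.12, 5.02 and 3.93 CPM. The highest lines held 17.01, 59.5, 30.02 and 60.3 CPM (clone N), 48.4, 10.2, 15.1 and 56.96 CPM (clone T), 39.7, 6.21, 25.9 and 36.9 CPM (KPC1) and 14.4, 5.101, 31.1 and 25.1 CPM (clone M). The others held 8.09, 12.99, 10.6 and 14.5 CPM (clone E), 12.9, 3.43, 13.6 and 14.4 CPM (clone H), 2.22, 2.08, 15.2 and 16.1 CPM (clone K) and 1.53, 1.204, 2.94 and 12.03 CPM (clone V). It was called with clones M, N and T and KPC1, where the log2 fold change reached 3.21 ± 0.75 (SE, edgeR adjusted p = 0.00114) with clone N, and the difference among the clones was called (edgeR adjusted p = 0.00226). The libraries of clones H, K and V fell on both sides of the mono-culture, and the call with clone M was lost in 7 of 36 fits that left out 1 library (adjusted p up to 0.144 without clone M replicate 3). Its level was lowest at the lowest epithelial marker sum in 7 of 8 co-cultures, as given further on.

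Of the lactate genes, Slc16a1, the monocarboxylate transporter 1, followed the lines like Pfkp. The mono-culture held 68.4, 71.8, 63.3 and 60.01 CPM. The lines with higher levels held 138, 115, 136 and 156 CPM (clone V), 121, 120.1, 113 and 128 CPM (clone T), 106, 135, 139 and 94.5 CPM (clone H), 131, 119, 118 and 105 CPM (KPC1), 102, 117, 99.9 and 92.5 CPM (clone N) and 121, 85.3, 100.2 and 91.1 CPM (clone E). The lines with lower levels held 62.99, 46.5, 55.7 and 52.7 CPM (clone K) and 46.8, 42.6, 53.3 and 59.1 CPM (clone M). All libraries of the first 6 lines lay above the mono-culture and all of clone M below it. The log2 fold change was 1.05 ± 0.12 (SE, edgeR adjusted p = 2.44e-08) with clone V and −0.39 ± 0.12 (SE, edgeR adjusted p = 0.023) with clone M, and the test among the clones gave an edgeR adjusted p of 3.9e-11. The call with clone M was lost without any 1 of 3 libraries (adjusted p up to 0.0983 without clone M replicate 2). Ldha, which turns pyruvate into lactate, was higher with clones E, N, T and V (log2 0.44 to 0.65), while Slc16a3, a lactate exporter known as a HIF target, was not called in any co-culture (log2 −0.50 to 0.59).

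The 3 flux regulators went separate ways. Pfkfb3, whose product makes the strongest activator of phosphofructokinase, held 5.34, 5.45, 5.25 and 5.48 CPM in the mono-culture. It held 27.3, 21.8, 21.9 and 16.4 CPM (KPC1), 13.4, 15.3, 28.1 and 18.1 CPM (clone H), 11.8, 12.1, 19.02 and 15.1 CPM (clone V) and 9.998, 15.9, 13.5 and 8.08 CPM (clone T). It held 7.76, 9.91, 9.94 and 17.01 CPM (clone N), 11.1, 9.35, 11.6 and 9.25 CPM (clone M), 7.07, 8.78, 7.19 and 6.704 CPM (clone K) and 7.37, 6.33, 7.97 and 6.89 CPM (clone E). All 32 co-culture libraries lay above the 4 mono-culture libraries, and it was called in all but clones E and K, at log2 fold changes from 0.94 with clone M to 2.02 ± 0.23 (SE, edgeR adjusted p = 1.15e-08) with KPC1. With clone M, where Hk2, Pfkp and Slc2a1 were not called higher, Pfkfb3 was thus called higher (log2 0.94, SE 0.23, edgeR adjusted p = 0.00281).

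Pfkfb4, a sister enzyme, was called only as lower. It held 18.7, 13.9, 19.5 and 18.8 CPM in the mono-culture, 15.9, 15.9, 16.9 and 18.8 CPM (clone K) and 17.4, 18.5, 18.1 and 19.2 CPM (clone M). It held 13.2, 16.7, 13.9 and 16.4 CPM (clone E), 16.6, 16.4, 13.6 and 11.9 CPM (clone N), 12.7, 10.1, 13.3 and 13.4 CPM (clone H) and 13.4, 8.96, 12.6 and 13.7 CPM (clone T). It held 7.83, 9.77, 9.37 and 11.97 CPM (clone V) and 8.75, 6.09, 10.4 and 10.04 CPM (KPC1). All libraries of clones H, T and V and KPC1 lay below the mono-culture, with log2 fold changes of −0.52, −0.54, −0.86 ± 0.15 (SE, edgeR adjusted p = 1.77e-05) and −1.01 ± 0.16 (SE, edgeR adjusted p = 2.06e-06), and the clones differed (edgeR adjusted p = 7.69e-05). Pdk1, a kinase that inhibits pyruvate dehydrogenase and a classic HIF target, was called in no co-culture over all libraries. It held 32.6, 35.2, 39.2 and 35.5 CPM in the mono-culture, 13.2, 14.2, 11.2 and 58.9 CPM (clone V), 37.6, 15.6, 14.97 and 45.9 CPM (clone T) and 42.02, 12.1, 20.4 and 32.3 CPM (KPC1). It held 16.4, 24.02, 29.4 and 41.9 CPM (clone E), 42.6, 15.5, 17.3 and 23.4 CPM (clone H), 21.5, 22.1, 24.7 and 32.5 CPM (clone K), 32.6, 26.1, 28.3 and 39.2 CPM (clone M) and 18.5, 25.2, 22.5 and 38.3 CPM (clone N). Its fitted log2 fold changes were all below 0, from −0.55 with clone V to −0.18 with clone M, and within clone V its libraries spanned more than those of any other group. Without the 8 co-culture libraries numbered 4 it was lower with clone V (log2 −1.47, edgeR adjusted p = 0.00217) and for the mean of the clones (log2 −0.69, edgeR adjusted p = 0.0212).

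Among the secreted factors of the hypoxia response, Vegfa and Adm moved in opposite directions. Vegfa, the main angiogenic growth factor, held 88.2, 91.7, 102 and 105 CPM in the mono-culture. It held 293, 272, 344 and 221 CPM (clone V), 314, 306, 281 and 195 CPM (KPC1), 268, 238, 313 and 228 CPM (clone H) and 246, 241, 237 and 188 CPM (clone T). It held 176, 210.3, 283 and 186 CPM (clone N), 150.3, 125, 207 and 192 CPM (clone E), 166, 140.01, 161 and 119.8 CPM (clone K) and 121, 111, 157 and 145 CPM (clone M). All 32 co-culture libraries were above all 4 of the mono-culture, and it was the member called higher in all 8 co-cultures, from 0.47 ± 0.17 (SE, edgeR adjusted p = 0.043) with clone M to 1.55 ± 0.17 (SE, edgeR adjusted p = 7.61e-09) with clone V. The difference among the clones was called as well (edgeR adjusted p = 2.4e-06). The call with clone M was lost in 10 of 36 fits that left out 1 library (adjusted p up to 0.155 without clone M replicate 3).

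Adm, the vasodilator peptide adrenomedullin, held 18.3, 30.3, 17.6 and 20.8 CPM in the mono-culture. It held 1.404, 3.08, 2.84 and 9.69 CPM (clone T), 4.84, 8.68, 2.41 and 3.73 CPM (clone M), 2.48, 4.88, 4.44 and 8.04 CPM (KPC1) and 4.74, 12.4, 6.01 and 4.66 CPM (clone E). It held 4.91, 8.33, 5.16 and 9.43 CPM (clone H), 2.19, 9.48, 6.05 and 10.2 CPM (clone V), 7.86, 11.8, 9.27 and 13.8 CPM (clone N) and 10.2, 18.9, 11.5 and 8.55 CPM (clone K). All libraries but 1 of clone K lay below the mono-culture. The call was made in 6 co-cultures, with the largest fall with clone T (log2 −2.35, SE 0.48, edgeR adjusted p = 0.000164), and was not reached with clone K (log2 −0.83, SE 0.45, edgeR adjusted p = 0.208) or clone N (log2 −1.03, SE 0.45, edgeR adjusted p = 0.0711). The test among the clones (edgeR adjusted p = 0.0444) lost its call in 22 of 36 fits that left out 1 library, with an adjusted p of up to 0.12 without clone K replicate 2. Vegfa and Adm are both textbook HIF targets, and in no co-culture was Adm called higher.

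**Figure D2:**
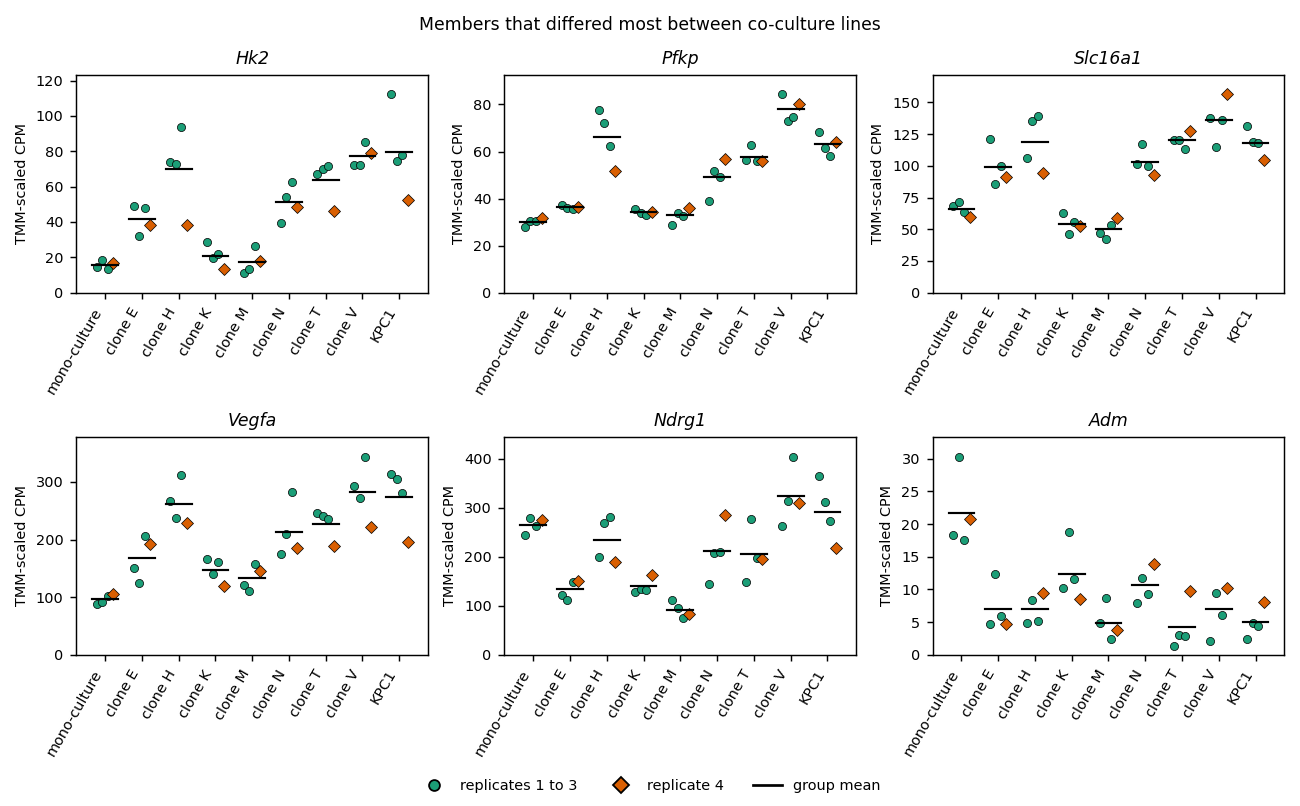
TMM-scaled CPM of 6 members in each of the 36 libraries, by group, with a line at the group mean and diamonds for the libraries numbered 4 (linear axes from 0). Hk2, Pfkp and Slc16a1 stay near the mono-culture with clones K and M and rise with clones H, T and V and KPC1, Vegfa lies above the mono-culture throughout, Adm lies below it in all but 1 library of clone K, and Ndrg1 is lowest with clone M.

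The oxygen sensors Egln1 and Egln3 are prolyl hydroxylases and HIF targets in turn. Egln3 held 17.3, 14.6, 17.3 and 16.96 CPM in the mono-culture. It held 40.5, 78.2, 62.6 and 83.98 CPM (clone N), 37.2, 31.1, 34.2 and 129.8 CPM (clone V), 69.01, 27.1, 54.5 and 68.3 CPM (KPC1) and 60.5, 38.5, 42.99 and 72.5 CPM (clone T). It held 59.4, 38.4, 46.96 and 50.5 CPM (clone H), 42.4, 32.8, 47.97 and 53.2 CPM (clone E), 22.6, 16.6, 32.9 and 43.9 CPM (clone M) and 19.5, 13.3, 31.1 and 43.6 CPM (clone K). All libraries of the 6 lines other than clones K and M lay above the mono-culture. It was called higher in those 6, from 1.41 ± 0.40 (SE, edgeR adjusted p = 0.00732) with clone E to 2.005 ± 0.40 (SE, edgeR adjusted p = 0.000223) with clone N. The difference among the clones (edgeR adjusted p = 0.0281) was lost in 6 of 36 fits that left out 1 library (up to 0.0665 without clone K replicate 1). Egln3, too, was lowest at the lowest epithelial marker sum, in all 8 co-cultures. Egln1 changed little and was called lower with clones N and T and KPC1 (log2 −0.30 to −0.27).

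P4ha2, a subunit of the collagen prolyl hydroxylase, held 39.9, 42.9, 45.9 and 52.3 CPM in the mono-culture. It held 80.02, 79.003, 88.5 and 115 CPM (clone V), 100.3, 79.5, 80.6 and 84.8 CPM (KPC1), 93.4, 90.5, 76.1 and 71.5 CPM (clone H) and 61.3, 72.7, 64.9 and 69.6 CPM (clone T). It held 54.5, 63.1, 72.3 and 73.2 CPM (clone N), 53.6, 54.4, 59.5 and 58.6 CPM (clone E), 53.7, 55.6, 58.001 and 40.9 CPM (clone K) and 45.4, 49.6, 44.4 and 52.5 CPM (clone M). All libraries of the 6 lines other than clones K and M were above the mono-culture, and the log2 fold change reached 0.9999 ± 0.12 (SE, edgeR adjusted p = 3.93e-08) with clone V. The clones differed (edgeR adjusted p = 1.8e-07), but the call with clone E (log2 0.32, SE 0.12, edgeR adjusted p = 0.0411) was lost in 12 of 36 fits that left out 1 library (adjusted p up to 0.167 without mono-culture replicate 1). P4ha1, the more abundant subunit, was called lower with KPC1 (log2 −0.43, SE 0.16, edgeR adjusted p = 0.0268) and in no other co-culture.

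Ndrg1, a hypoxia and stress gene, went its own way and held 244, 280.1, 263 and 275 CPM in the mono-culture. It held 112, 95.8, 74.9 and 83.7 CPM (clone M), 123, 113, 149 and 151 CPM (clone E) and 129, 135, 133 and 162 CPM (clone K). It held 148, 277, 198 and 197 CPM (clone T), 146, 208, 210.1 and 286 CPM (clone N), 200.1, 269.6, 281 and 189.8 CPM (clone H), 365, 312, 272 and 219 CPM (KPC1) and 263, 314, 405 and 311 CPM (clone V). All libraries of clones E, K and M lay below the mono-culture, at −1.54 ± 0.19 (SE, edgeR adjusted p = 3.77e-07) on the log2 scale for clone M, and the other co-cultures were not called. It had the smallest p among the clones of the 13 hypoxia genes (edgeR adjusted p = 1.69e-08).

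Higd1a, a mitochondrial protein of the hypoxia response, held 16.1, 15.9, 18.1 and 19.1 CPM in the mono-culture. It held 10.6, 11.4, 9.399 and 8.95 CPM (clone M), 12.8, 8.99, 11.4 and 13.3 CPM (clone N), 13.8, 10.7, 9.57 and 13.4 CPM (clone E) and 10.7, 13.9, 11.2 and 11.7 CPM (clone T). It held 9.701, 17.4, 11.6 and 14.9 CPM (KPC1), 13.8, 14.6, 10.9 and 14.5 CPM (clone H), 17.2, 17.6, 13.3 and 10.9 CPM (clone K) and 23.3, 12.7, 13.7 and 21.4 CPM (clone V). All libraries of clones E, H, M, N and T lay below the mono-culture. It was called lower with clones E, M, N and T, at most −0.78 ± 0.19 (SE, edgeR adjusted p = 0.0029) with clone M. Its call was lost without clone E replicate 3 in clone E (adjusted p = 0.105) and without clone N replicate 2 in clone N (adjusted p = 0.0728), 3 other libraries also ended the call with clone E, and leaving out mono-culture replicate 4 ended that with clone T (adjusted p = 0.0518). Ddit4, a brake on mTOR, was higher with clones H and V and KPC1 (log2 0.42 to 0.63). Bnip3, Ankrd37, the histone demethylase Kdm3a and the carbonic anhydrase Car9 were called in no co-culture. Car9 had only 3 to 20 counts and Ankrd37 8 to 93 counts per library, and Ankrd37 also varied with the replicate number. Only large changes were therefore detectable in them.

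Set side by side, the median log2 fold change of the 19 glycolysis genes ran from −0.21 with clone K to 0.37 with clone V, and that of the 13 hypoxia genes from −0.26 with clone T to 0.04 with clone V. The median of all genes tested lay within 0.0116 of 0 in every comparison. With clone V the medians of the sets were 0.03 and −0.06 once replicate 4 of that clone was left out. With clone H, 7 glycolysis genes were called higher and 1 lower, and 4 hypoxia genes higher and 1 lower. With clone T, 7 glycolysis genes were higher and 0 lower, and 3 hypoxia genes higher and 3 lower. With clone K all 3 called glycolysis genes were lower. No difference between the sets was tested.

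By RPKM, Gapdh (744 ± 70.7 RPKM), Pkm (635 ± 58.4 RPKM) and Aldoa (346 ± 23.5 RPKM) were the most abundant members in the mono-culture (SD, n = 4), while Hk2 (3.005 ± 0.356 RPKM) and Pfkp (3.63 ± 0.194 RPKM) were among the rarest. The share of Hk2 in the summed RPKM of Hk1 and Hk2 was 5.53 ± 0.686% in the mono-culture, 6.12 ± 2.22% with clone M, 7.38 ± 2.33% with clone K, 20.995 ± 4.15% with KPC1 and 21.5 ± 1.66% with clone V. The share of Pfkp among the 3 phosphofructokinases was 4.79 ± 0.363% in the mono-culture and 15.04 ± 3.95% with clone V. The share of P4ha2 in the sum with P4ha1 was 13.2 ± 1.09% and reached 28.02 ± 1.53% with KPC1. The summed RPKM of 15 glycolytic enzymes and Ldha was 2671 ± 189 in the mono-culture, and its co-culture means lay below that, from 2024 ± 248 with clone K to 2586 ± 838 with clone V. No test was run on the shares or sums.

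A separate set of members varied with the replicate number instead of with the line. Over the 32 co-culture libraries, the share of the sum of squares of log2 CPM that lay between the 8 lines had a median of 43.7% over the members and 56.9% over all genes, and the share between the 4 replicate numbers had a median of 24.1% against 10.95%. Pfkp (92.8% line, 0.311% number), Slc16a1 (91.1% and 0.801%) and Hk2 (84.7% and 5.53%) stood at one end. Ankrd37 (13.5% line, 70.4% number), Bnip3 (9.31% and 68.9%) and Kdm3a (13.8% and 63.5%) stood at the other. This pattern was noticed in the data, and the labels do not say that a number marks a shared day or batch. The sample titles run through the co-cultures in the order of the replicate number and end with the mono-cultures.

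**Figure D3:**
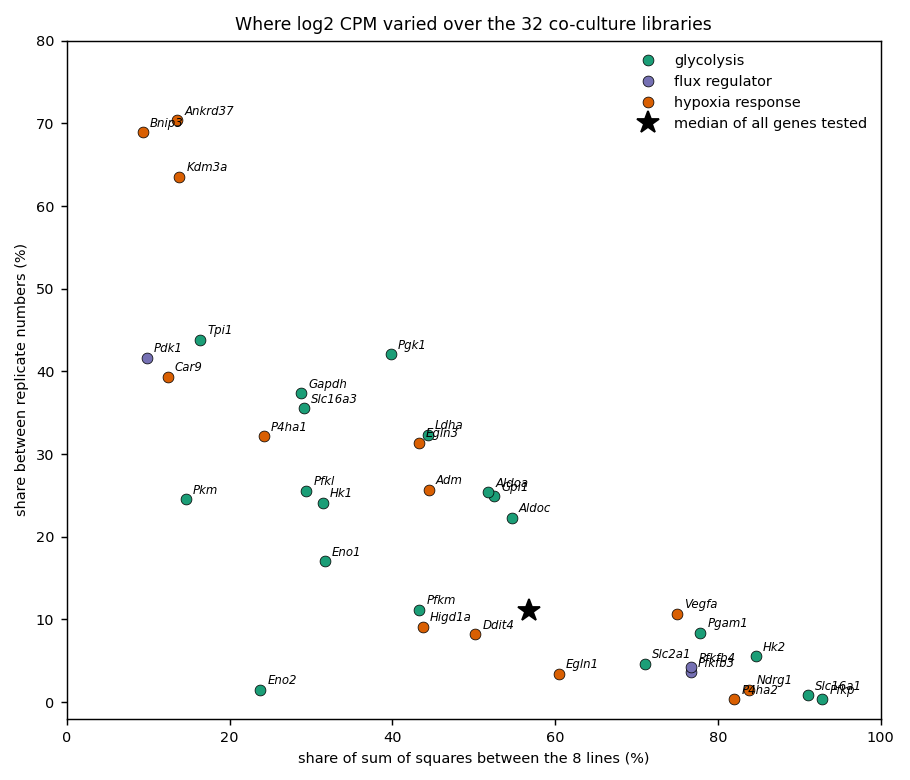
Share of the sum of squares of log2 CPM over the 32 co-culture libraries that lay between the 8 lines (x axis, %) and between the 4 replicate numbers (y axis, %), 1 point per member, with a star at the median of all 14439 genes. Pfkp, Slc16a1, P4ha2, Ndrg1 and Hk2 lie at the lower right and Ankrd37, Bnip3 and Kdm3a at the upper left.

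The libraries numbered 4 were the high ones. Bnip3, which marks mitochondria for mitophagy, held 36.5 CPM in replicate 4 of clone E against 16.7 to 21.4 CPM in the other 3 libraries, 67.9 against 19.4 to 20.3 CPM with clone V and 37.1 against 20.2 to 21.6 CPM with KPC1. Ankrd37 held 5.56 CPM in replicate 4 of clone V against 0.385 to 1.12 CPM in the other 3 libraries, and 4.71 against 0.601 to 1.4 CPM with clone T. In the mono-culture, replicate 4 held the lowest Bnip3 level of its group (28.7 against 32.9 to 35.1 CPM). Bnip3, Ankrd37 and Kdm3a were highest in the library numbered 4 of all 8 co-cultures and Aldoa, Tpi1 and Pgk1 in 7 of 8, that is 6 of 35 members against 3.14% of all genes. No member was highest in the same number 1, 2 or 3 in 7 or more co-cultures. Vegfa and Hk2 were highest in the library numbered 4 of 0 co-cultures, and their mean level there was 184 and 41.7 CPM against 223 and 56.2 CPM in the others. Clone V replicate 4 stood farthest out, with 58.9 CPM of Pdk1 against 11.2 to 14.2 CPM and 130 CPM of Egln3 against 31.1 to 37.2 CPM in its group.

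**Figure D4:**
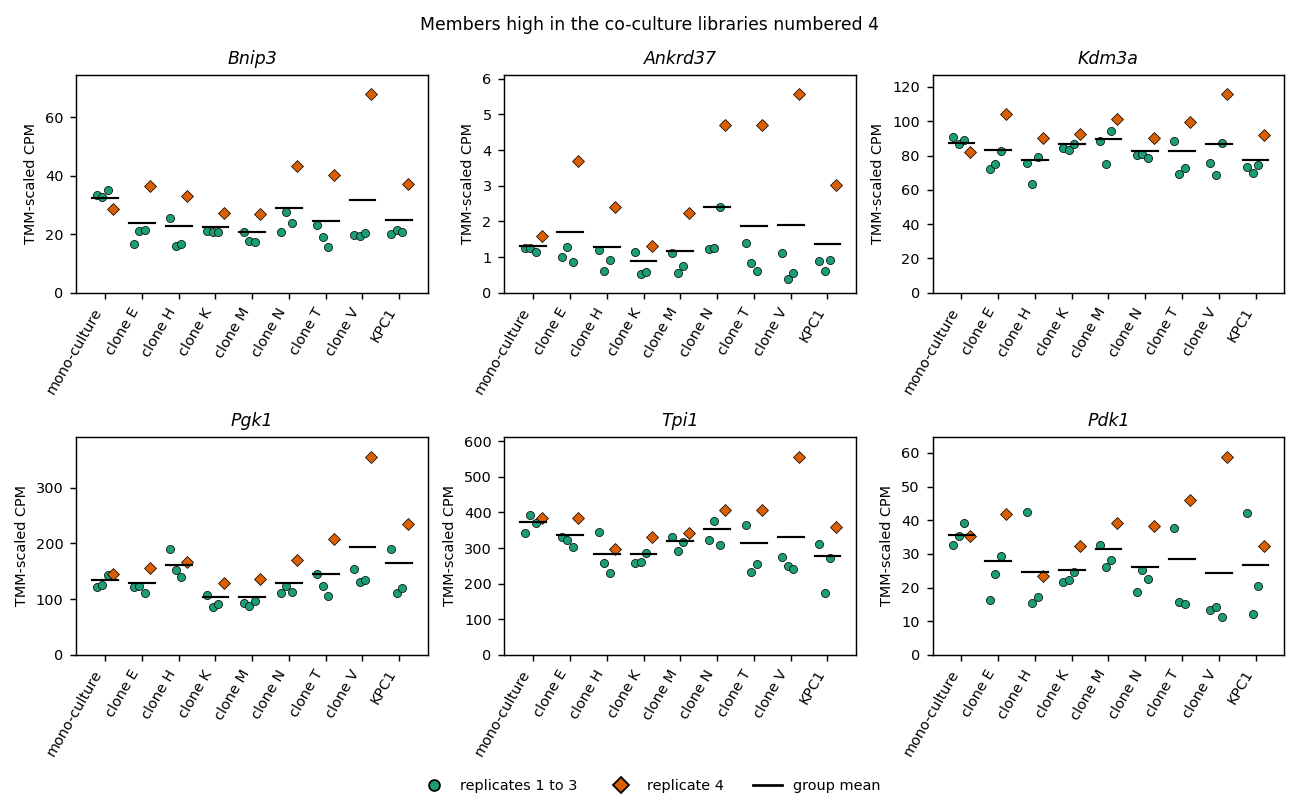
TMM-scaled CPM of 6 members in each of the 36 libraries, by group, with a line at the group mean and diamonds for the libraries numbered 4 (linear axes from 0). Bnip3, Ankrd37 and Kdm3a are highest in the diamond of all 8 co-cultures, and the diamond of clone V is the highest library of each panel.

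The comparisons were repeated without the 8 co-culture libraries numbered 4, a choice made after seeing the data and set by the level of these same genes, so that lower values of them there follow in part from the choice. The members called were then 11 with clone E (32.7% of all genes), 19 with clone H (55.9%), 12 with clone K (23.2%), 13 with clone M (23.8%), 16 with clone N (37.3%), 17 with clone T (51.8%), 22 with clone V (59.4%), 22 with KPC1 (61.9%) and 21 for the mean of the 7 clones (52.8%). The share of members was then above that of all genes with clones K (34.3%), M (37.1%), N (45.7%) and V (62.9%), KPC1 (62.9%) and the mean (60%), and below it with clones E (31.4%), H (54.3%) and T (48.6%). Bnip3 was then called lower in all 8 co-cultures (log2 −0.81 to −0.43), Tpi1 lower in 5, and the members called for the mean of the clones were 10 higher and 11 lower in place of 11 and 5. With clone K, 9 of the 12 called were lower, among them Aldoa, Tpi1, Gapdh, Pgk1, Pgam1, Eno1 and Pkm. Hk2, Pfkp, Slc16a1, Pfkfb3 and Egln3 were each called higher in 6 co-cultures as before, Vegfa in 8 and P4ha2 in 7.

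Low epithelial marker RNA went with low levels of a few members and not of others. In clone K, whose epithelial sums were 56.6, 21.97, 258 and 317 CPM in replicates 1 to 4, Aldoc held 2.22, 2.08, 15.2 and 16.1 CPM and Egln3 19.5, 13.3, 31.1 and 43.6 CPM. In clone V, with sums of 40.2, 35.2, 136 and 235 CPM, Aldoc held 1.53, 1.204, 2.94 and 12.03 CPM, whereas Pfkp held 84.3, 72.9, 74.9 and 80.2 CPM. In clone E, with sums of 349, 271, 523 and 339 CPM, Aldoc held 8.09, 12.99, 10.6 and 14.5 CPM and did not follow the sum. Gpi1, Egln3 and Aldoc were lowest in the library with the lowest epithelial sum in 8, 8 and 7 of the 8 co-cultures, that is 3 of 35 members against 1.01% of all genes. That library was replicate 2 in every co-culture but clone N, where it was replicate 1. A low epithelial sum and the replicate number therefore cannot be told apart in this count. At the other end, the library with the highest sum was highest for Egln3 in 3 co-cultures and for Gpi1 and Aldoc in 4 each. There, 0 of 35 members matched in 7 or 8 co-cultures, against 1.48% of all genes. The mono-culture sums did not overlap with any co-culture, so contact with the tumour cells and carried-over tumour RNA cannot be told apart in the comparison of any member with the mono-culture. With the log2 epithelial sum as a covariate, an alternative added after seeing the data that extends the slope beyond the co-cultures to the mono-culture, Aldoc turned to −3.92 with KPC1 and Egln3 to −1.30, and both had been called higher. Egln3 was reversed in all 6 of its co-cultures, Aldoc in all 4 and Higd1a in 3 of 4. Adm lost all 6 of its calls, with log2 −0.95 (adjusted p = 0.531) in place of −2.35 with clone T. Slc16a1 lost 5 of 7, Vegfa 5 of 8, and Hk2, P4ha2 and Pfkfb3 3 of 6 each. Pfkp lost 1 of 6, Ndrg1 1 of 3 and Pfkfb4 0 of 4.

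**Figure D5:**
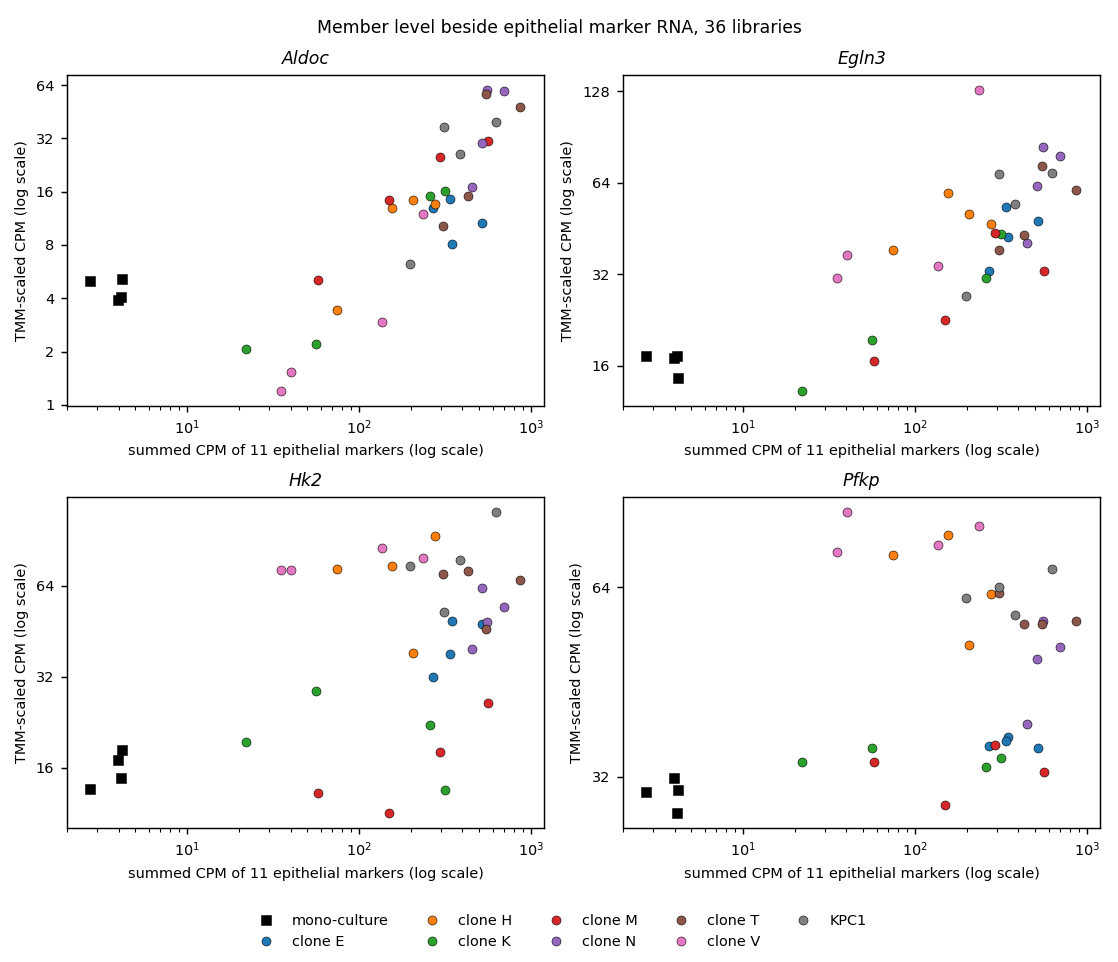
TMM-scaled CPM of Aldoc, Egln3, Hk2 and Pfkp (y axes, log scale) against the summed CPM of 11 epithelial markers (x axes, log scale) in the 36 libraries, coloured by group, with squares for the mono-culture. Aldoc and Egln3 tend to be low where the sum is low within a co-culture. Hk2 and Pfkp are high with clone V at sums of 35.2 to 235 CPM and lower with clone M at sums of up to 561 CPM. Within clone M, Hk2 is highest (26.1 CPM) at the sum of 561 CPM, whereas within clone K it is lowest (13.5 CPM) at the highest sum (317 CPM).

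The genes that set HIF activity were looked up from a list of 12 pathway components, all of which were tested. Between 0 and 2 were called higher and between 0 and 6 lower in any co-culture. The share called ran from 8.33% with clone K to 66.7% with clone V, against 19.1% and 58.3% of all genes. Of the 12, 10 (83.3%) differed among the clones, against 67.5% of all genes. Hif1a, the oxygen-regulated subunit, was 276 ± 17.01 CPM in the mono-culture and between 229 CPM with clone M and 304 CPM with clone H, and only clone M was called (log2 −0.27, SE 0.09, edgeR adjusted p = 0.0305). Epas1, which encodes HIF-2 alpha, fell from 28.8 ± 8.29 CPM to 5.67 ± 2.303 CPM with clone V (log2 −2.35, SE 0.25, edgeR adjusted p = 6.32e-09), 10.96 ± 3.64 CPM with clone H (log2 −1.40, SE 0.24, edgeR adjusted p = 1.59e-05) and 14.2 ± 2.698 CPM with KPC1 (log2 −1.02, SE 0.24, edgeR adjusted p = 0.000473). Those were 3 of the 4 co-cultures with the highest Hk2. Hif1an, the asparaginyl hydroxylase that blocks HIF, was lower with clones E, H, N, T and V and KPC1 (log2 −0.56 to −0.22), and the hydroxylase gene Egln2 was lower with clones H, N, T and V and KPC1 (log2 −0.64 to −0.31). Vhl was called nowhere (log2 −0.10 to 0.11).

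Of 26 other genes of glycolysis and pyruvate use, 18 were tested. For the mean of the 7 clones 4 were higher and 8 lower, that is 66.7% called against 49.2% of all genes. Gpd1l, a glycerol phosphate dehydrogenase, fell from 30.1 ± 2.49 CPM to 7.86 ± 3.01 CPM with clone V (log2 −1.94, SE 0.19, edgeR adjusted p = 1.21e-09), and Pdk2, a sister kinase of Pdk1, fell with clones H and V and KPC1, to 8.42 ± 2.22 CPM with clone V (log2 −1.18, SE 0.18, edgeR adjusted p = 1.38e-06). Of 27 further HIF targets, all were tested. For the mean of the clones 5 were higher and 6 lower, that is 40.7% called against 49.2% of all genes. Ero1l, an oxidase of protein folding, rose with clones H, T and V and KPC1, to 260.3 ± 16.9 CPM with clone V from 109 ± 15.96 CPM (log2 1.25, SE 0.20, edgeR adjusted p = 3.77e-06), and fell with clone M (log2 −0.93, SE 0.20, edgeR adjusted p = 0.00093). Zfp395, a zinc finger gene, was lower in all co-cultures but clones K and M, at most with clone V (log2 −1.26, SE 0.13, edgeR adjusted p = 1.05e-09). With clones K and M, Epas1, Gpd1l, Pdk2 and Zfp395 were not called. For Epas1 this was not particular to them, as its group means were 37.0, 40.2 and 26.5 CPM with clones E, N and T, against 28.8 CPM in the mono-culture.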

How the data were processed

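RNA-seq libraries of sorted fibroblasts (9 groups of 4) were analysed from 2 deposited tables. Per the labels' processing notes, the authors used STAR, featureCounts and edgeR with the mm10 build (versions not given in the sources used here) and deposited raw counts per gene and RPKM values; the counts were tested, and RPKM served only for levels between genes. No column of another sample was present (0 columns).

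Genes were filtered by filterByExpr over the 9 groups, scaled by TMM and fitted with edgeR 4.0.16 (R 4.3.3) by the robust quasi-likelihood method over all groups, with Benjamini-Hochberg adjustment over 14439 genes and a threshold of 0.05. Contrasts were each line against the mono-culture, the mean of 7 clones against it, and an F-test among the clones. The log2 CPM used a prior count of 1. The script was tested on simulated data.

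Full values per library were given for the 3 members of each set with the smallest p among the clones and for the highest and lowest called member of each co-culture with a mean of at least 2 CPM, and Hif1a, Epas1, Vhl, Egln2, Hif1an and the 2 genes of each wider list with the smallest p among the clones were named. Values of Bnip3, Ankrd37 and Kdm3a were shown after they had been seen. The members and lists were chosen with earlier results of these data known.

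Alternatives were DESeq2 1.42.0, its size factors, library size only, no filter or at least 10 counts in every library, limma 3.58.1 on log2(RPKM + 1) and log2(RPKM + 0.1), a threshold of 0.1, a replicate block, and leaving out each library. Leaving out the 8 co-culture libraries numbered 4 and an epithelial covariate were added after seeing the data.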

Additional observations from a re-analysis of the deposited data

Results flagged for a closer look

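In 135 sets of 4 libraries (named members and set means by group), 10 had a highest or lowest library set apart by Dixon's criterion on its gap to the nearest other, divided by the whole range, where chance gives about 1 in 20 sets, or 6.75 here. Of the 10, 6 lay in libraries numbered 4. In clone V, replicate 4 was high for Pdk1 (gap 0.937 of the range), Egln3 (0.938) and Aldoc (0.839), for the mean log2 CPM of the glycolysis set (0.878) and for that of the hypoxia set (0.923, at 5.73 against 4.97 to 5.03). In clone T, replicate 4 was low for Vegfa (0.843, at 188 against 237 to 246 CPM) and replicate 2 was high for Pfkp (0.91, at 62.6 against 55.96 to 56.6 CPM). In clone H, replicate 2 was low for Aldoc (0.87, at 3.43 against 12.9 to 14.4 CPM). In the mono-culture, replicate 2 was low for Pfkfb4 (0.843, at 13.9 against 18.7 to 19.5 CPM) and for Egln3 (0.879, at 14.6 against 16.96 to 17.3 CPM). The effects of the clones differed from each other by the F-test for 21 of the 35 members (60%), against 67.5% of all genes.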

How the results depend on the processing

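Of 90 calls of named members, DESeq2, its size factors, the threshold of 0.1 and the replicate block kept all 90. The stricter filter kept 88, library size only 85, no filter 83, log2(RPKM + 1) 86 and log2(RPKM + 0.1) 85. Leaving out 1 library kept 3149 of 3240 and reversed 0. The members called then ranged from 6 to 11 with clone E, 12 to 16 with H, 2 to 7 with K, 5 to 10 with M, 10 to 14 with N, 12 to 16 with T, 14 to 21 with V, 14 to 18 with KPC1, 13 to 20 for the mean of the clones and 18 to 23 among the clones. The lowest counts for clones E (6), K (2) and M (5) came without mono-culture replicates 3, 2 and 2. The share of all genes called was not taken for the fits that left out 1 library.

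The labels did not pair same-numbered libraries. By correlation, the mean was 0.143 for the same number against −0.0473 for other numbers (lowest −0.582). Of the 32 co-culture libraries, 23 correlated best with their own number. An edgeR F-test of the number over these libraries, chosen after seeing the data, was called for 20 of 35 members and 4805 of 14306 genes. The main fit had no term for the number. The replicate block also gave the mono-culture libraries the term of their number, although their mean correlation with the same number was −0.0209. With the replicate block the members called were 13, 18, 7, 10, 14, 18, 17 and 18 for clones E, H, K, M, N, T, V and KPC1, 17 for the mean and 24 among the clones. The share of all genes called was not taken for that fit, so these counts have no background beside them.

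Of the alternatives added after seeing the data, leaving out the 8 libraries numbered 4 raised the members called to 12 with clone K and 13 with clone M. Those were 34.3% and 37.1% of the members, against 23.2% and 23.8% of all genes. With the epithelial covariate the members called were 6 with clone E, 13 with K and 8 with N, where the share of all genes was not taken, and 37 of 90 named calls were kept. It reversed Egln3 with clones E (−1.60), H (−0.91), N (−1.29), T (−1.55) and V (−0.40), KPC1 (−1.30) and the mean (−1.32). It reversed Higd1a with E (0.34), N (0.39), T (0.40) and the mean (0.36), and Aldoc with M (−3.76), N (−3.86), T (−4.20), KPC1 (−3.92) and the mean (−4.31). That fit extends the slope from the co-cultures to the mono-culture, whose sums lie outside theirs. Car9 was limited by depth. Ankrd37 had low counts too, but 70.4% of its sum of squares over the co-cultures lay between replicate numbers. Without the 8 libraries numbered 4 it was called lower with clone V (log2 −0.95, edgeR adjusted p = 0.0403), which follows in part from that choice.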

Other observations

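Some genes of the wider lists, chosen after their values were seen, moved in the co-cultures. Mpc1, a subunit of the mitochondrial pyruvate carrier, was called lower in all 8 (log2 −1.45 with clone V to −0.83 with KPC1), and Pcx, which turns pyruvate into oxaloacetate, was called lower in all 8 as well (−1.93 with KPC1 to −0.61 with clone K). The secreted HIF targets Stc2 and Angptl4 were called higher in the 6 lines other than clones K and M, by up to 2.76 with clone V and 3.81 with clone T. Fam162a and Bnip3l, 2 further HIF targets, were highest in the library numbered 4 of all 8 co-cultures, and 65.7% and 35.1% of their sums of squares lay between replicate numbers.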
